A study of Homo sapiens with 6 samples.

Results

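The 10 genes described here encode the enzymes that build, lengthen and desaturate fatty acids: ACLY, ACSS2, ACACA, FASN, SCD, ELOVL1, ELOVL5, ELOVL6, FADS1 and FADS2. They were taken by symbol from a table of raw counts of 60564 genes, in which each symbol matched 1 gene, and all 10 passed the filter on low counts that left 18797 genes. The samples were RNA of HEK293, an established cell line from human embryonic kidney, with 3 wild-type libraries and 3 libraries of cells that stably overexpress SFXN2, a sideroflexin, one of the transport proteins that sit in mitochondrial membranes. The titles call the groups NC_HA and OE_HA. What these letters stand for, whether the control cells carried an empty vector, what drives the transgene and whether the overexpressing line was 1 clone or a pool all stand as not given in the sources used here; so does whether replicates were separate cultures. The p-values therefore measure only the spread between these libraries, which may be technical.

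Fatty acids are built in the cytosol from acetyl-CoA. ACLY makes that acetyl-CoA from citrate exported by mitochondria and ACSS2 makes it from acetate, ACACA carboxylates it to malonyl-CoA, and FASN joins the units into palmitate. In the endoplasmic reticulum ELOVL elongases lengthen the chain, and the desaturases SCD, FADS1 and FADS2 add double bonds. Many of these genes are targets of the transcription factor SREBP-1, the product of SREBF1, which works at promoters together with NF-Y and Sp1, and cells that divide quickly use the products for new membranes.

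Total gene counts ran from 32121527 to 59963713, and the 10 genes held 0.384, 0.319 and 0.437% of all counts in the wild-type libraries and 0.388, 0.331 and 0.338% in those with overexpression, each in the order of replicates 1, 2 and 3, which is kept throughout. SFXN2 itself stood at 36.6, 27.8 and 44.7 CPM in wild type and at 1523, 1909 and 1771 CPM with overexpression, so each library matched its label. CPM puts the counts of a gene on 1 scale for libraries of unlike depth, here with TMM factors. The 11 genes listed as marks of HEK293, among them PAX2, LHX1 and NEFL, were counted in every library, from 4.11 CPM upward. Of 5 adipocyte and 5 hepatocyte marks, cells best known for fatty acid synthesis, FABP4, LEP, TTR and SERPINA1 had no count in any library, and PLIN1 and ALB were counted in every library. The adipocyte marks summed to 0.981 to 2.15 CPM in wild type and 1.56 to 2.19 CPM with overexpression, nearly all of it PLIN1. The hepatocyte marks summed to 0.170 to 0.316 CPM in wild type and 0.245 to 0.636 CPM with overexpression. ALB was higher in each overexpression library, at 0.360, 0.600 and 0.245 CPM against 0.127, 0.170 and 0.113 CPM (edgeR adjusted p = 0.93). Its counts were only 4 to 33. APOA1 went the other way, at 0, 0.036 and 0 CPM with overexpression against 0.063, 0.073 and 0.057 CPM, and did not pass the filter on low counts. The remaining marks of these cells stood at 0.131 CPM or less. The part of such cells in the levels of the 10 genes was not tested. In bulk RNA a change in the share of cells that express a gene and a change per cell cannot be told apart.

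No gene of the 10 differed between the groups at an adjusted p of 0.05, in either direction, where 0.0106% of all tested genes did (2 genes, SFXN2 and the read-through gene model C1QTNF3-AMACR, the latter named after its values were seen). With the replicate number as a block 1 gene was called, and still none of the 10. The test was the quasi-likelihood F-test of edgeR, adjusted over all 18797 genes by the Benjamini-Hochberg method. At an unadjusted p below 0.05 the edgeR count was 0 of 10, against 4.76% of all genes. DESeq2 likewise called 0 of 10, against 12 of its 33964 genes. At its unadjusted p below 0.05 stood 0 of 10, against 3.09% of those genes. The CPM ranges of the groups overlapped for every one of the 10, and did not overlap for 9.16% of all genes. With only 10 genes, counts of 0 do not set them apart from these shares. The log2 fold changes ran from -0.30 for FASN to 0.050 for ELOVL5, with 9 of 10 below zero and a median of -0.11. Over all genes the median was 0.0060, with 9175 of 18797 below zero. Of the 10, 8 were below zero with library size alone as the scaling, and 6 to 9 with 1 library left out. The number was also 8 with a filter of 1 CPM in 3 libraries, with the replicate block and with limma on the deposited log2 table.

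**Figure D1:**
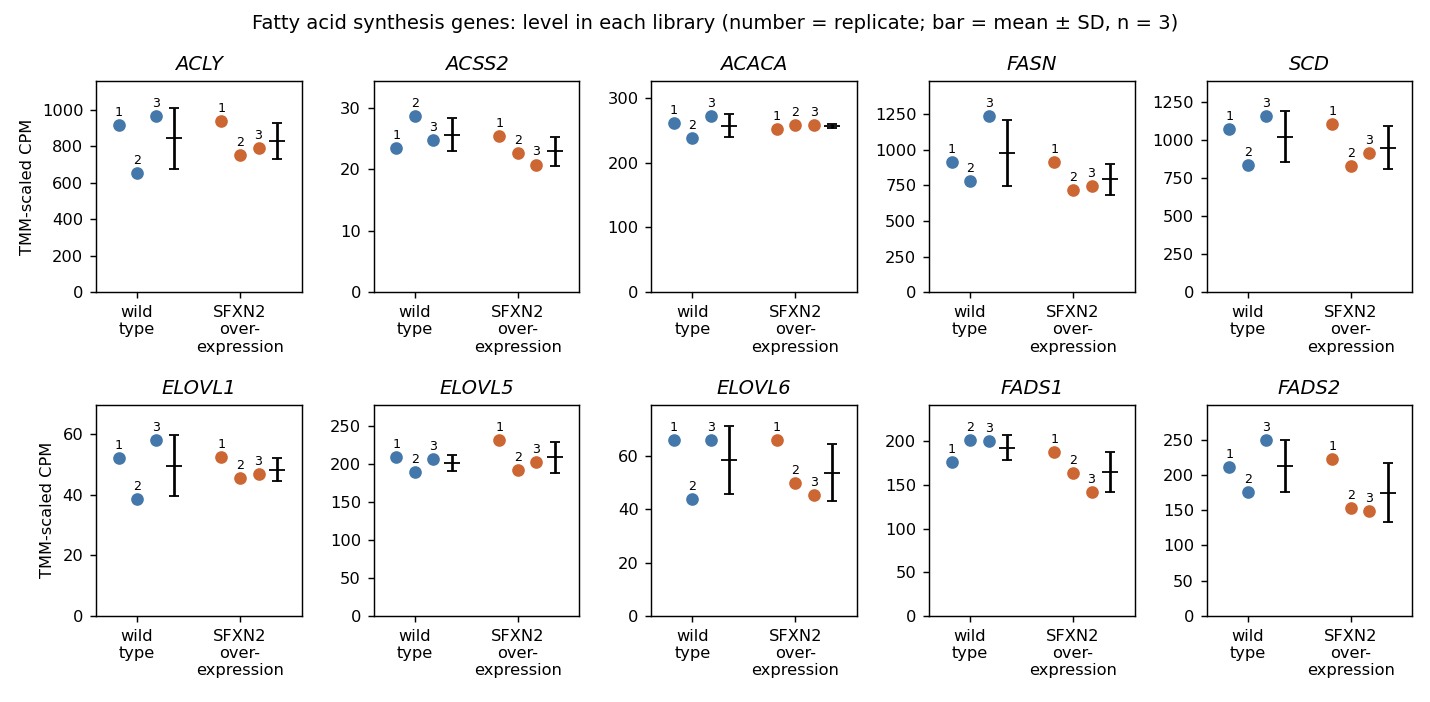
TMM-scaled CPM (y axis, starting at 0) of each of the 10 genes in the 3 wild-type and 3 SFXN2-overexpression libraries; numbers are replicates and the bar beside each group is the mean ± SD (n = 3). The groups overlap in every panel, and wild-type replicate 2 and overexpression replicates 2 and 3 lie low for most genes, as for ELOVL6 at 43.8, 49.8 and 45.6 CPM.

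The promoters of SCD and of the 3 elongases are shown first, because these genes include some of the most and the least variable of the 10 across the libraries. Each line gives the 250 bases before the transcript start in RefSeq (GRCh38.p14), 5′ to 3′ on the gene's strand, with CCAAT or its reverse complement ATTGG, the letters bound by NF-Y, in capitals. SCD lies at chr10:100346983-100347232 on the plus strand, and ELOVL1 at chr1:43368012-43368261, ELOVL5 at chr6:53348951-53349200 and ELOVL6 at chr4:110198616-110198865 on the minus strand.
SCD: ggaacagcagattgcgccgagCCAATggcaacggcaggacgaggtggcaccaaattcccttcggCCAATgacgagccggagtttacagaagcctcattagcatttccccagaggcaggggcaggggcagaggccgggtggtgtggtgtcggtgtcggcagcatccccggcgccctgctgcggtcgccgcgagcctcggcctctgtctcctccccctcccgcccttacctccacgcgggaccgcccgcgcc
ELOVL1: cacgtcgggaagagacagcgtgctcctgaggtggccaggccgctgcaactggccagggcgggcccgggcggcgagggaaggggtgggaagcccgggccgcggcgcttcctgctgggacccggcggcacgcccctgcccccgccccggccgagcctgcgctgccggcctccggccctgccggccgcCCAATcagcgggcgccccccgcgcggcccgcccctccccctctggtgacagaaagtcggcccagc
ELOVL5: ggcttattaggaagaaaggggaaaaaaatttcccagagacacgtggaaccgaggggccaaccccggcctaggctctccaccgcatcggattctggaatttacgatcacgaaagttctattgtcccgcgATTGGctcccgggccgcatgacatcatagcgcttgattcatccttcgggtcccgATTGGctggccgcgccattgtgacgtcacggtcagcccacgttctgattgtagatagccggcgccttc
ELOVL6: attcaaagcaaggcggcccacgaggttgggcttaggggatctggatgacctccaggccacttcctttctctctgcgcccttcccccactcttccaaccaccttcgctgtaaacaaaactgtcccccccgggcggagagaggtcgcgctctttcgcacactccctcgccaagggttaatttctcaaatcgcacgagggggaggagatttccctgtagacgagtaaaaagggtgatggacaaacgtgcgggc

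These 4 stretches hold 2, 1, 2 and 0 such boxes. RefSeq windows of 300 bases (250 before to 50 after a start) were found for 9 of the 10 genes, 14 windows in all, and FASN is named only. ACACA has 3 windows and ACLY, ACSS2 and FADS2 have 2 each, and those of ACLY share 229 bases and those of FADS2 99, so the 14 are not separate promoters. A CCAAT box on either strand was in at least 1 window of 7 of the 9 genes (9 of the 14 windows), and 34.6% of all 35116 windows hold one. The GC box GGGCGG, the letters of Sp1, was in a window of 8 of the 9 genes (11 of the 14 windows), and in 45.0% of all windows. Shares over genes and over windows are not on the same footing. The sterol regulatory element TCACNCCAC, the letters bound by SREBP, was in 0 of the 14, against 1.13% of all windows, and the E box CACGTG was in 1, that of ELOVL5, against 7.26%. A match is only a run of letters, and its absence says only that these letters are not in this window. From the lowest to the highest library, ELOVL5 and SCD, with 2 boxes each, varied 1.22-fold and 1.39-fold. ELOVL1, with 1, varied 1.50-fold and ELOVL6, with 0, 1.51-fold. ACLY, with 2 boxes in each window, varied 1.48-fold, and FADS1, with 0, varied 1.42-fold. In the genes whose windows differ, ACACA, with 2, 1 and 0 boxes, varied 1.14-fold and ACSS2, with 1 and 0, 1.38-fold. FADS2, with 0 and 1, varied 1.68-fold. A link between boxes and this spread was not tested.

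Among the genes that supply the carbon, ACLY, the citrate-cleaving enzyme (chromosome 17, 41866908 to 41930542, GENCODE 29 on GRCh38), stood at 915, 654 and 965 CPM in wild type and at 939.6, 754 and 789 CPM with overexpression. Wild-type replicate 2 was the lowest of the 6, and the wild-type libraries enclose the overexpression libraries. The means were 845 ± 167 and 828 ± 98.6 CPM (SD, n = 3 each), a log2 fold change of -0.030 (SE 0.15, edgeR adjusted p = 0.99). ACSS2, which activates acetate and is the weakest of the 10 (chromosome 20, 34872146 to 34927962), stood at 23.5, 28.6 and 24.7 CPM in wild type and at 25.4, 22.6 and 20.8 CPM with overexpression. Here wild-type replicate 2 was the highest library, unlike for ACLY, and overexpression replicate 3 the lowest. Its log2 fold change was -0.16 (SE 0.13, edgeR adjusted p = 0.93).

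The genes of the committed step and of palmitate synthesis follow. ACACA, acetyl-CoA carboxylase 1 (chromosome 17, 37084988 to 37406818), stood at 262, 238 and 272 CPM in wild type and at 253, 259 and 259 CPM with overexpression. The overexpression libraries lie inside the wild-type range, and the log2 fold change of -0.0021 (95% interval -0.21 to 0.20) is the closest to zero of the 10. FASN, fatty acid synthase (chromosome 17, 82078333 to 82098332), stood at 917, 783 and 1235 CPM in wild type and at 917, 719 and 743 CPM with overexpression. Wild-type replicate 3 stands highest by far and overexpression replicates 2 and 3 lowest, while the replicates numbered 1 match. The means were 978 ± 232 and 793 ± 108 CPM (SD, n = 3 each), the largest difference of the 10, with a fold of 0.811 (95% interval 0.624 to 1.05, edgeR adjusted p = 0.93). Without wild-type replicate 3 its log2 fold change was -0.10, and without wild-type replicate 2 it was -0.44 (unadjusted p = 0.0183, edgeR adjusted p = 0.884), in a fit where 4.90% of all genes had an unadjusted p below 0.05.

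Of the elongases, ELOVL6, which extends palmitate to stearate (chromosome 4, 110045846 to 110199199), stood at 66.1, 43.8 and 65.9 CPM in wild type and at 66.0, 49.8 and 45.6 CPM with overexpression. The libraries fall apart within both groups, with wild-type replicate 2 lowest. The means were 58.6 ± 12.8 and 53.8 ± 10.8 CPM (SD, n = 3 each), a log2 fold change of -0.12 (SE 0.18), which ran from -0.30 without overexpression replicate 1 to -0.024 without overexpression replicate 3. ELOVL1, which makes very long saturated chains (chromosome 1, 43363397 to 43368074), stood at 52.1, 38.6 and 58.1 CPM in wild type and at 52.5, 45.5 and 46.9 CPM with overexpression, again with the overexpression libraries inside the wild-type range (log2 fold change -0.039, SE 0.15). ELOVL5, which extends polyunsaturated chains (chromosome 6, 53267398 to 53349179), stood at 209.6, 190.2 and 206 CPM in wild type and at 232, 192 and 203 CPM with overexpression. Overexpression replicate 1 was its highest library, and it alone of the 10 had a log2 fold change above zero, 0.050 (95% interval -0.18 to 0.28). That value was -0.034 without overexpression replicate 1. The edgeR adjusted p was 0.962 or more for the 3 elongases.

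**Figure D2:**
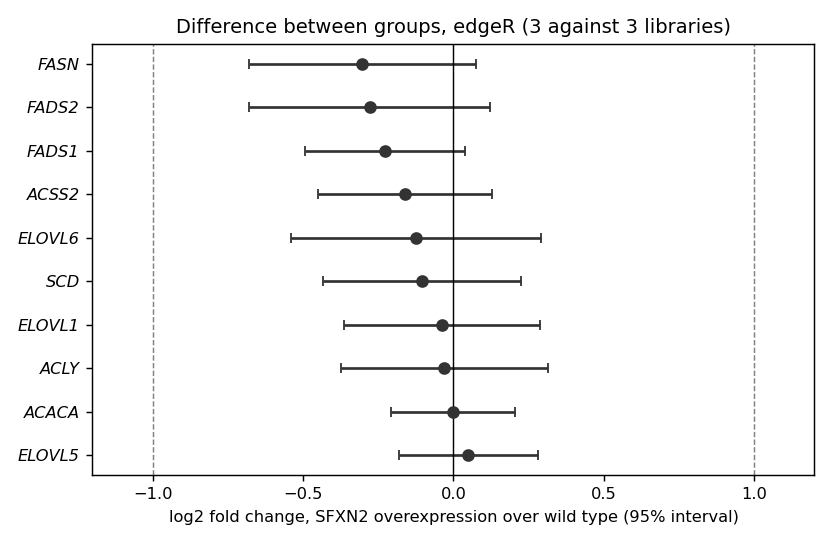
Log2 fold change of each gene, SFXN2 overexpression over wild type (x axis), with its 95% interval from edgeR; dashed lines mark a doubling and a halving. All 10 intervals include zero and lie within -1 to 1, from FASN at -0.30 to ELOVL5 at 0.050.

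SCD, which puts the first double bond into stearate and palmitate, was the strongest of the 10 in CPM. It lies on chromosome 10 from 100347124 to 100364834, 2349704 bases from SFXN2 on the same chromosome. It stood at 1072, 835 and 1156 CPM in wild type and at 1105, 829.9 and 915 CPM with overexpression, so that wild-type replicate 2 and overexpression replicate 2 were close to each other and lowest. The means were 1021 ± 166 and 950.0 ± 141 CPM (SD, n = 3 each), a log2 fold change of -0.10 (SE 0.15, edgeR adjusted p = 0.958), which ran from -0.23 without wild-type replicate 2 to -0.0063 without wild-type replicate 3.

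FADS1 and FADS2, the delta-5 and delta-6 desaturases of polyunsaturated fatty acids, are neighbours on chromosome 11. FADS1 stood at 176, 202 and 200.1 CPM in wild type and at 188, 164 and 142 CPM with overexpression. Overexpression replicates 2 and 3 were the lowest of the 6 libraries, and overexpression replicate 1 lay inside the wild-type range. The means of 193 ± 14.1 and 165 ± 22.7 CPM (SD, n = 3 each) gave a log2 fold change of -0.23 (SE 0.12, edgeR adjusted p = 0.93) and the smallest unadjusted p of the 10, 0.0856. FADS2 stood at 211, 176 and 249 CPM in wild type and at 223, 153 and 148 CPM with overexpression. Again overexpression replicates 2 and 3 were lowest, with wild-type replicate 2 next, and the log2 fold change was -0.28 (SE 0.18, edgeR adjusted p = 0.93). Without overexpression replicate 1 the log2 fold changes were -0.34 for FADS1 (unadjusted p = 0.0197, edgeR adjusted p = 0.342) and -0.49 for FADS2 (unadjusted p = 0.0112, edgeR adjusted p = 0.303). In that fit 11.8% of all genes had an unadjusted p below 0.05, and without overexpression replicate 3 the values were -0.14 and -0.18.

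The counts of the desaturase pair cannot be separated with full certainty. The annotated FADS2 gene (61792980 to 61867354, plus strand) spans FADS1 (61799625 to 61829318, minus strand), with 490 exon bases shared, 4.79% of those of FADS1. The kit does not mark the strand. FADS2 also shares 49 exon bases, 0.44% of its own, with FEN1 on the same strand, which had counts of 4060 to 7655. The RefSeq starts of FADS2 lie 800 and 599 bases inside FADS1's own start. The ratio of FADS1 to FADS2 CPM was 0.837, 1.15 and 0.802 in wild type and 0.843, 1.07 and 0.960 with overexpression, 0.928 ± 0.189 and 0.957 ± 0.113 (SD, n = 3 each). The ratio was above 1 in the replicates numbered 2 of both groups, and the groups overlap.

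With all 6 libraries, all 10 genes had 95% intervals within a log2 change of -1 to 1, against 72.6% of all tested genes. Of the 10, 8 lay within a 1.5-fold change either way, against 9756 of 18797 tested genes, the exceptions being FASN and FADS2. The median SE was 0.147 among the 10 and 0.174 over all tested genes. The 78 tested genes of the further lists of the pathway, described below, were much like the 10. Of these, 71 had intervals within -1 to 1 and 59 within a 1.5-fold change, and their median SE was 0.142. The lowest bound among the 10 was a fold of 0.624, that of FASN, and the highest was 1.24, that of ACLY. Without overexpression replicate 1 the lower bound of FASN was a log2 change of -0.85. Misses of the threshold do not show that the levels were equal.

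Per kilobase of annotated exon the 10 genes spread widely within a library. In wild type SCD stood at 190.4 ± 31.0, ACLY at 162 ± 32.0, FASN at 104 ± 24.8 and ELOVL5 at 53.0 ± 2.73 CPM per kilobase (SD, n = 3 each). SCD and ACLY overlap, as do ACLY and FASN, while FASN and ELOVL5 do not. ELOVL1, ACACA, FADS2 and FADS1 followed between 18.8 and 19.8 CPM per kilobase with overlapping ranges, and below them, with no overlap, came ELOVL6 at 8.03 ± 1.76 and ACSS2 at 4.76 ± 0.497 CPM per kilobase (SD, n = 3 each). With overexpression the order of the first 4 and the last 2 was the same, and ACLY and FASN no longer overlapped, at 159 ± 18.9 and 84.7 ± 11.5 CPM per kilobase (SD, n = 3 each). With the longest annotated transcript as the length, ACLY came before SCD, and FADS1 and FADS2 came before ELOVL1 and ACACA, so the order within these neighbours depends on the length used.

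The libraries of a group stood apart from each other for most of the 10 genes. Measured from each gene's wild-type mean, the 10 genes averaged 0.029, -0.19 and 0.16 in wild type and 0.076, -0.21 and -0.22 with overexpression, in log2 CPM. Wild-type replicate 2 lay with overexpression replicates 2 and 3, and overexpression replicate 1 lay with the wild-type replicates 1 and 3. Below the wild-type mean stood 3, 8 and 1 of the 10 in the wild-type libraries and 4, 9 and 8 in the overexpression libraries. Wild-type replicate 2 was the lowest library for 5 genes and the highest for 2, ACSS2 and FADS1. From the lowest to the highest library the difference was 1.72-fold for FASN, 1.68-fold for FADS2, 1.51-fold for ELOVL6, 1.50-fold for ELOVL1 and 1.48-fold for ACLY, against 1.22-fold for ELOVL5 and 1.14-fold for ACACA.

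**Figure D3:**
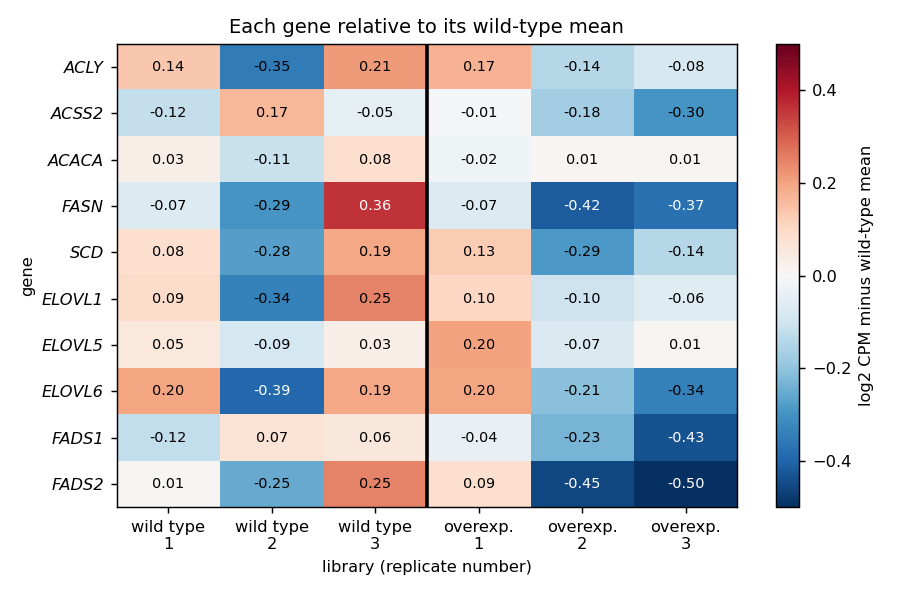
Log2 CPM of each gene (rows) in each library (columns) minus the gene's wild-type mean; red is above and blue below that mean, and the black line divides the groups. Most genes are blue in wild-type replicate 2 and overexpression replicates 2 and 3, ACACA is near zero throughout (-0.11 to 0.082), and ACSS2 and FADS1 are above zero in wild-type replicate 2 (0.17 and 0.068).

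The libraries with low values were also those with the most genes counted. A count was found for 24466, 26127 and 25384 genes in the wild-type libraries, and for 25010, 28985 and 29154 in those with overexpression. Total counts were 41217867, 52958006 and 59963713 in wild-type replicate 2 and overexpression replicates 2 and 3, the deepest of the 6. Overexpression replicate 1 came close to wild-type replicate 2 in depth, at 40043248. The 10 genes nevertheless averaged 0.076 in the former and -0.19 in the latter. Over all tested genes the mean log2 CPM relative to wild type stood at 0.055, 0.100 and 0.070 in these libraries, against -0.063 to 0.0080 in the others. The part of depth or library make-up in the levels of the 10 genes was not tested.

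Taken by replicate number, the differences pointed different ways. In pair 1, 2 of the 10 genes were lower with overexpression, in pair 2, 5 were, and in pair 3 all 10 were. Over all 18797 tested genes 9351, 9205 and 9080 were lower in pairs 1, 2 and 3. Among the 78 tested genes of the further lists the numbers were 33, 45 and 54. The 10 cholesterol genes were also all lower in pair 3, with 5 and 2 lower in pairs 1 and 2. FASN differed by 0.00023, -0.12 and -0.73 on the log2 scale in pairs 1, 2 and 3, and FADS2 by 0.080, -0.20 and -0.75. ACLY was higher with overexpression in pair 2 (0.21) and lower in pair 3 (-0.29).

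The regulators of the pathway also did not pass, with 0 of 14 genes higher and 0 lower at the threshold and a median log2 fold change of -0.079. SREBF1, which encodes SREBP-1, stood at 49.5, 42.1 and 51.7 CPM in wild type and at 50.1, 32.2 and 37.2 CPM with overexpression, again lowest in overexpression replicates 2 and 3 and next in wild-type replicate 2 (log2 fold change -0.26, SE 0.16, edgeR adjusted p = 0.93). Its log2 fold change was -0.46 without overexpression replicate 1 and -0.13 without overexpression replicate 2. INSIG1, which holds SREBP precursors in the endoplasmic reticulum and is itself an SREBP target, stood at 163, 109 and 166 CPM in wild type and at 250.0, 124 and 136 CPM with overexpression. Its highest library was overexpression replicate 1, and its log2 fold change of 0.22 (95% interval -0.48 to 0.92) was -0.17 without that library. The smallest unadjusted p values of the list belonged to MLXIPL, which encodes the glucose-responsive factor ChREBP (log2 fold change -0.65, SE 0.32), and SREBF2, which encodes SREBP-2 (-0.18, SE 0.11), each at 0.93 after adjustment in edgeR. That of MLXIPL ran from -0.97 without wild-type replicate 1 to -0.41 without wild-type replicate 2.

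The other lists of the pathway, 80 genes with the regulators and 78 of them tested, held 0 called genes, with 2 at an unadjusted p below 0.05 (2.56%, against 4.76% of all genes). The groups did not overlap for 4 of the 78 (5.13%, against 9.16% of all genes), with ACSS1, DGAT1 and ACACB lower in all overexpression libraries and ME1, a malic enzyme that makes NADPH, higher. For carbon and NADPH supply (8 tested) the median log2 fold change was -0.15, with ACSS1, the mitochondrial acetyl-CoA synthetase, at 20.7, 31.6 and 26.7 CPM in wild type and at 19.4, 17.6 and 17.2 CPM with overexpression. All 3 overexpression libraries lay below all 3 wild-type libraries, and the difference had an unadjusted p of 0.00658 and an edgeR adjusted p of 0.93 (log2 fold change -0.54, SE 0.16). SLC25A1, the mitochondrial citrate exporter, had a log2 fold change of -0.23. For activation and glycerolipid assembly (15 tested) the median was -0.044, and DGAT1, which makes triglycerides, stood at 15.5, 19.4 and 20.9 CPM in wild type and at 14.0, 13.9 and 13.9 CPM with overexpression, again with no overlap (log2 fold change -0.42, SE 0.14, unadjusted p = 0.0161, edgeR adjusted p = 0.93). AGPAT3, an acyltransferase of phospholipid synthesis, had a log2 fold change of -0.19. ACSS1 and DGAT1 are thus the genes of these lists with the smallest unadjusted p, and neither passed.

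The remaining lists had medians between -0.13 and 0.027. The 7 tested carboxylase partners had a median log2 fold change of -0.0013, with ACACB, the mitochondrial-surface carboxylase, at -0.25 and MID1IP1, an activator of the carboxylase, at -0.59 (SE 0.37), which was -0.92 without wild-type replicate 1 and -0.15 without wild-type replicate 2. The 14 tested further enzymes of elongation and desaturation had a median of -0.0018, with CYB5R3, the cytochrome b5 reductase that passes electrons to desaturases, at -0.25 and the desaturase SCD5 at -0.27. The 10 genes of fatty acid synthesis inside mitochondria had a median of 0.027, with HSD17B8 at -0.42 (SE 0.28, and -0.67 and -0.15 without the same libraries) and the ketoacyl synthase OXSM at -0.25. The 10 genes of cholesterol synthesis and uptake, known as SREBP-2 targets, had a median of -0.13, with the cyclase LSS at -0.22 and the decarboxylase MVD at -0.15. Without wild-type replicate 3 these were -0.056 and -0.033, and without wild-type replicate 2 -0.37 and -0.25. No gene named in these lists passed in edgeR (adjusted p = 0.93 for each but MVD, at 0.947).

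**Figure D4:**
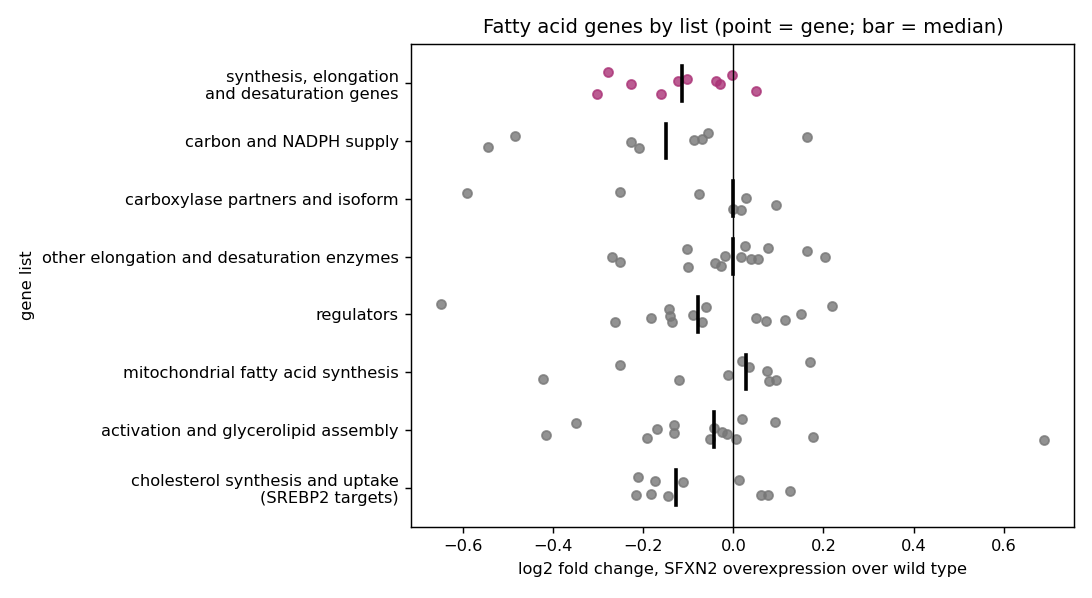
Log2 fold change, SFXN2 overexpression over wild type (x axis), of every tested gene in the 10-gene set and 7 further lists (rows); each point is 1 gene and the black bar is the list's median. Medians run from -0.15 (carbon and NADPH supply) to 0.027 (mitochondrial fatty acid synthesis), and the point furthest right, at 0.69, is the weakly counted ACSL5.

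The cholesterol list was low in the same libraries as the fatty acid genes. Its mean log2 CPM relative to wild type was 0.18, -0.34 and 0.16 in wild type and 0.19, -0.18 and -0.22 with overexpression. Carbon and NADPH supply was lowest in the same libraries, at 0.077, -0.088 and 0.011 in wild type and 0.0025, -0.27 and -0.27 with overexpression. So were the further enzymes of elongation and desaturation, at 0.066, -0.053 and -0.014 in wild type and 0.14, -0.054 and -0.16 with overexpression. Mitochondrial fatty acid synthesis, with -0.097, 0.033 and 0.063 in wild type and -0.084, -0.041 and 0.049 with overexpression, did not show that order. Nor did the regulators, the carboxylase partners or activation and glycerolipid assembly. By the mean absolute difference between centred log2 CPM values over the 6 libraries, the genes of the further lists most like the mean of the 10 were MVD (0.023), PGD, a NADPH-making enzyme of the pentose phosphate pathway (0.049), and CS, citrate synthase (0.053), of 78 compared. MVD stood at 24.9, 21.3 and 28.7 CPM in wild type and at 25.6, 20.9 and 21.2 CPM with overexpression. Among the 10 themselves the same distance ran from 0.061 for SCD to 0.14 for ACSS2, so SCD followed the common pattern most closely and ACSS2 least. Each of the 10 is part of the mean it is compared with, unlike the further genes. The distances of the 10 and of the further genes are therefore not on the same footing.

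**Figure D5:**
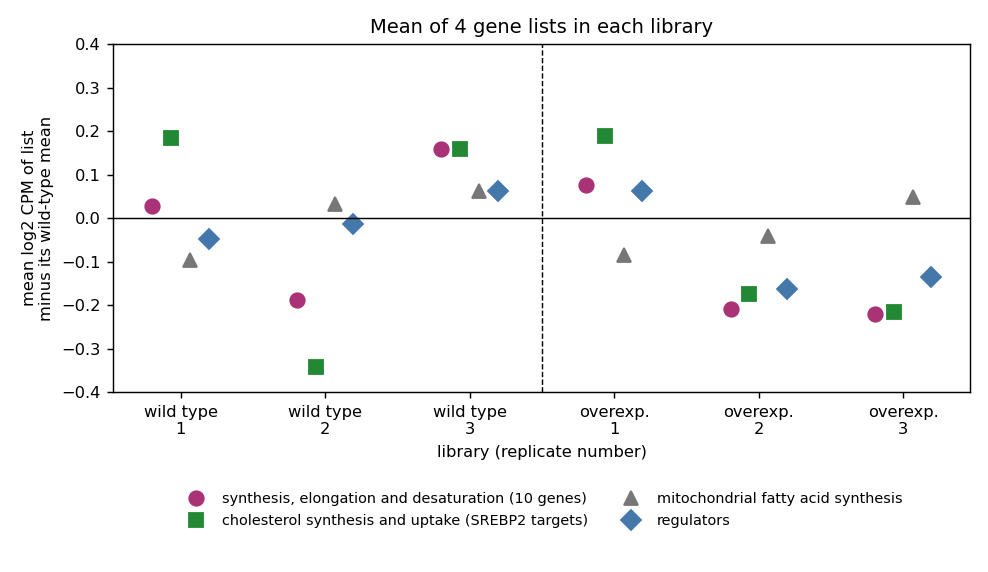
Mean log2 CPM of 4 gene lists in each library minus the list's wild-type mean (y axis); the dashed line divides wild type from SFXN2 overexpression. The 10 fatty acid genes (circles) and the cholesterol genes (squares) are low in wild-type replicate 2, at -0.19 and -0.34, and in overexpression replicates 2 and 3, at -0.18 to -0.22.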

How the data were processed

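Libraries were prepared from rRNA-depleted total RNA with a TruSeq v2 kit, per the labels' protocols, and that kit is known to be unstranded. The submitters' processing notes name Trim Galore 0.4.4 and build hg38. Aligner, counter and annotation: not given in the sources used here. Raw counts per Ensembl gene were deposited by the authors, beside a log2 table (35778 genes) that is the log2 of 1 plus the count over a library constant.

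The count table went through edgeR 4.0.16 in R 4.3.3, with filterByExpr at a minimum count of 10, TMM scaling, the quasi-likelihood F-test in its robust form (group the only term), and Benjamini-Hochberg adjustment over 18797 genes. Each SE is the absolute log2 fold change divided by the root of F, and 95% intervals used the test's degrees of freedom. Log2 CPM used a prior count of 2. The procedure was tested on simulated data. Gene positions, exon lengths and overlaps came from GENCODE 29 (GRCh38), matched by Ensembl ID.

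The 10 genes and all lists were chosen with earlier results of these data known. Named were the 10 genes, SFXN2, SREBF1 and INSIG1. In each further list, any called gene and the 2 with the smallest unadjusted p were named. So were the 3 listed genes nearest to the mean profile. C1QTNF3-AMACR, ACSL5, FEN1, ME1 and the markers shown were named after their values were seen. Deviations from the group means correlated at 0.24, 0.33 and 0.19 for replicates numbered 1, 2 and 3, and at -0.26 to -0.074 for unlike numbers. The numbers were used as pairs only in the differences by replicate number and in the replicate block, not in the main fit. No source states a pairing, and it was read from these values. Alternatives were DESeq2 1.42.0, limma-voom (limma 3.58.1), scaling by median of ratios or by library size only, other filters, the replicate block, limma on the log2 table, and leaving out each library. Counts without molecular identifiers are not independent molecules.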

Additional observations from a re-analysis of the deposited data

How the results depend on the processing

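None of the 10 genes and none of the listed further genes passed under any of the 14 alternatives run. Over all genes, DESeq2 called 12 and the replicate block 1, against 2 in edgeR, and leaving out each library gave 1 to 3, with 1 called without wild-type replicate 3 or overexpression replicate 2. The block changed no call among the 10 genes or the further lists, where 8 of 78 genes then had an unadjusted p below 0.05 (10.3%, against 8.32% of all genes in that fit). With 1 library left out 1 to 12 had, the 12 (15.2%, against 11.8% of all genes) without overexpression replicate 1. ACACA, closest to zero, turned positive with library size alone (0.027), a filter of 1 CPM in 3 libraries (0.0027), the replicate block (6.8e-05) and limma on the deposited log2 table (0.00083); the cause was not tested. Leaving out single libraries turned the sign of ACLY (log2 fold changes from -0.19 to 0.076), ACACA (-0.057 to 0.039), ELOVL1 (-0.19 to 0.089), ELOVL5 (-0.034 to 0.10), INSIG1 (-0.17 to 0.40) and PGD (-0.15 to 0.010). FASN, SCD, ELOVL6, ACSS2, FADS1 and FADS2 stayed below zero in all 14, with FASN from -0.44 to -0.10, SCD from -0.23 to -0.0063, ELOVL6 from -0.30 to -0.024, ACSS2 from -0.24 to -0.074, FADS1 from -0.34 to -0.14 and FADS2 from -0.49 to -0.15. With 3 libraries a group the SE was 0.092 to 0.18 among the 10 genes.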
